A study of Homo sapiens with 10 samples.

Results

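GATA6 can be taken away from a cell quickly or for good, and open chromatin was compared here between both kinds of loss in DLD-1, an established human colorectal adenocarcinoma line. The acute group, AID_aux, held 2 libraries of the GATA6-AID-IAA7 line, in which GATA6 carries an auxin-inducible degron, after 12 h in 500 µM of the auxin IAA. The lasting group, KO, held 2 libraries of cells whose GATA6 gene had been disrupted with CRISPR/Cas9 (genotype GATA6-KO), with no treatment given in the labels. Each loss has its own untreated line in the series, with 2 libraries each. AID_ctrl is the degron line at 0 h, which carries the auxin label with that time and is read here as untreated, and WT is the unedited line. The degron line came from positive clones, the number of clones is not given for either line, and of the compared groups only AID_aux carries the tag and met the auxin. The series also holds 2 libraries of the degron line after auxin was washed out (AID_wash). The comparison thus uses 4 of 10 libraries, and the other 6 were read only to describe what it found.

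GATA6 is a zinc-finger transcription factor of endoderm and gut epithelium that binds the letters GATA in DNA and can help open chromatin there. A degron fuses the protein to a tag that a ubiquitin ligase recognises when auxin is present, so the protein is destroyed while the gene stays intact. A knockout removes the protein through many cell divisions, during which other regulators and the choice of the cells that grow can change as well. ATAC-seq marks open chromatin by where a transposase can insert adapters, and a peak is a stretch where insertions pile up.

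Merging the peak intervals of the 4 lists on the autosomes and chromosome X gave 147670 regions, where the lists of all 10 libraries merge into 168719. An overlap of 1 bp with any peak of a library counted as a call. AID_aux-only means called by both AID_aux and neither KO library, KO-only the reverse, and shared means called by all 4. The lists differ in format. The AID_aux lists held 101479 and 90370 distinct intervals with a median width of 581 and 589 bp and a −log10 p per peak, and the KO lists held 130311 and 116231 windows of exactly 500 bp with no value per peak. The intervals covered 70.2 and 62.6 Mb in AID_aux, against 65.2 and 58.1 Mb in KO. The lists give no read depth, and a region that lacks a call can still be open below the threshold. The test over libraries was the exact permutation test, which cannot give a two-sided p below 0.333 with 2 libraries against 2. It is not given whether replicates were separate cultures, so the spread between them may be technical.

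Both groups carried open chromatin at genes of colon epithelium. Of 16 colon epithelium markers, AID_aux libraries had a peak within 1000 bp of a gene end at 15 and 14, against 14 and 15 in KO libraries. LGALS4 was called in neither AID_aux library and in KO replicate 2 only, though both AID_ctrl and both WT libraries called it. CDX1 lacked a call in KO replicate 1, and GPA33 in replicate 2 of both groups. Of 15 blood and immune markers the counts were 7 and 8 in AID_aux and 9 and 9 in KO, with MS4A1, LYZ, NKG7 and TAL1 at 0 in all 4 libraries. CD3E, CD8A, CD14, ITGAM, SPI1, GATA1 and KIT were called in all 4, PTPRC in AID_aux replicate 2 and both KO libraries, and HBB in neither AID_aux and both KO libraries. Of 15 fibroblast and endothelial markers they were 3 and 4 in AID_aux and 6 and 6 in KO, with COL3A1, FAP, THY1, KDR, TEK and VWF at 0 in all 4. COL1A1, COL1A2 and PDGFRB were called in all 4, DCN in AID_aux replicate 2 and both KO libraries, and ERG in neither AID_aux and both KO libraries. The part of other cell types in the results was not tested.

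Promoters show the kinds of sequence at stake. The set below holds RefSeq promoter windows (GRCh38.p14, 250 bases before to 50 after a start, written 5′ to 3′ on the gene's strand) that lay in regions with different fates. B3GALT1, a galactosyltransferase gene (chr2:167292751-167293050, + strand), KLHL4, a kelch-like gene (chrX:87517552-87517851, + strand), and RLN2, which encodes the hormone relaxin (chr9:5304179-5304478, − strand), were AID_aux-only. SPINK6, a serine protease inhibitor gene (chr5:148202528-148202827, + strand), STARD13, a RhoGAP gene (chr13:33205975-33206274, − strand), and AGR3, a gene of the protein disulfide isomerase family expressed in secretory epithelium (chr7:16881934-16882233, − strand), were KO-only. The promoter of GATA6 itself (chr18:22169339-22169638, + strand) lay in a region called by all 10 libraries. Capitals mark AGATAA or TGATAA or AGATAG or TGATAG, or their reverse complements.
B3GALT1: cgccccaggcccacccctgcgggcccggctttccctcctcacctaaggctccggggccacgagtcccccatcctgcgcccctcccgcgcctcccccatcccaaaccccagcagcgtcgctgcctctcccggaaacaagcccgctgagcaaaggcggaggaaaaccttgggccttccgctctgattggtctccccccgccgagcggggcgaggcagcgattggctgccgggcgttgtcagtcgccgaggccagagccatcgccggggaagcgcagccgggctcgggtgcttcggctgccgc
KLHL4: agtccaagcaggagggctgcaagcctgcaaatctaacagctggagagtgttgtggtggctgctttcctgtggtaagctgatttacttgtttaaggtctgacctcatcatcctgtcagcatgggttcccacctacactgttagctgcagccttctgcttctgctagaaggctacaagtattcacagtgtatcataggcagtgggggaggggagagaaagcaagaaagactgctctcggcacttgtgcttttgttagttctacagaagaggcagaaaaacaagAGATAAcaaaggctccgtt
RLN2: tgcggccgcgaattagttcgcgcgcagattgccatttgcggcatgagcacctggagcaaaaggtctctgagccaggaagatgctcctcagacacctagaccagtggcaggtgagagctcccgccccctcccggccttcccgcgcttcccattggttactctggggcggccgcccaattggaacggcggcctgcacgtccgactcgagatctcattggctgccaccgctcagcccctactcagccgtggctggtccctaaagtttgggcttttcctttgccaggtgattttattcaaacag
SPINK6: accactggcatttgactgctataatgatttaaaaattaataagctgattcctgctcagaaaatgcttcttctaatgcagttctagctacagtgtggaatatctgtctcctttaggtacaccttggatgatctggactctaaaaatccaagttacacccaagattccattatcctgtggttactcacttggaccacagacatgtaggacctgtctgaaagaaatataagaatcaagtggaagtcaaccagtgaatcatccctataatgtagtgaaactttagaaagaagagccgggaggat
STARD13: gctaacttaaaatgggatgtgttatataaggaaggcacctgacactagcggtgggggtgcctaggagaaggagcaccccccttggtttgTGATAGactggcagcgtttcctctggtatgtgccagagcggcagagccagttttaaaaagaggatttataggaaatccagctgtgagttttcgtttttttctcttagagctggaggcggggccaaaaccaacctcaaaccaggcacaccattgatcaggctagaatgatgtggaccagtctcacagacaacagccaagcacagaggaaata
AGR3: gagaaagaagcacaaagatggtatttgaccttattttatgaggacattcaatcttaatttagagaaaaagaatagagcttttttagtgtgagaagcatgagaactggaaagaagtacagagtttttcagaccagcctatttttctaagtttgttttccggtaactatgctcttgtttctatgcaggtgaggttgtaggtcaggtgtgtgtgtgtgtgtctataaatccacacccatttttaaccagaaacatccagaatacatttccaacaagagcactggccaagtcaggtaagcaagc
GATA6: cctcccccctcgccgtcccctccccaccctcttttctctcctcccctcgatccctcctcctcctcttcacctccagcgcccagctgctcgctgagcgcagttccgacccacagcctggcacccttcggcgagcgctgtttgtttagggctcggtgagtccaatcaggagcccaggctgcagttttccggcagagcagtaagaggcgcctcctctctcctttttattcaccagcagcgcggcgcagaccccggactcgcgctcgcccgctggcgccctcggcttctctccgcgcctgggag

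Most regions called after 12 h in auxin were also called in the knockout. KO libraries called more regions besides, while their windows covered 65.2 and 58.1 Mb, against 70.2 and 62.6 Mb in AID_aux. Of the 147670 regions, 72949 were shared (49.4%), 3192 were AID_aux-only (2.16%) and 20673 were KO-only (14.0%), which is 6.48 KO-only regions for each AID_aux-only region. Of the 78897 regions that both AID_aux libraries called, 92.5% were also called by both KO libraries. Of the 105917 regions that both KO libraries called, 68.9% were also called by both AID_aux libraries. The remaining 50856 regions (34.4%) had replicates that differed, 26039 times within AID_aux and 29057 times within KO, more regions than the AID_aux-only and KO-only classes hold together. AID_aux libraries called 97439 and 86394 regions, against 127546 and 113345 in KO (exact permutation test, two-sided p = 0.333, the smallest this design allows). The groups did not overlap in this count.

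KO-only regions outnumbered AID_aux-only regions under each of the 9 other settings tried, but by 1.08 to 49.7 times. The largest ratios, 49.7 and 17.8, came from settings that removed peaks from the AID_aux lists only. Such settings push the balance toward KO-only regions, so they are no check of the order. The rest gave 1.08 to 9.64 times. With every AID_aux summit and KO window set to the same 500 bp, 3309 AID_aux-only and 20544 KO-only regions were found. When a library's peaks had to cover at least 50% of a region, the counts were 29587 AID_aux-only and 31840 KO-only, and shared regions numbered 28687. Leaving out AID_aux replicate 1, AID_aux replicate 2 or KO replicate 1 raised the AID_aux-only count to 7552, 10713 or 5685, and leaving out KO replicate 2 raised the KO-only count to 36686.

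The groups were also compared by covered bases. The Jaccard index, shared length over joint length, was 0.705 between the AID_aux replicates and 0.639 between the KO replicates. Across the groups it was 0.350 to 0.381. AID_aux against WT libraries gave 0.315 to 0.393 and AID_ctrl against KO libraries 0.346 to 0.362, so the distance of AID_aux from KO was within the range of other pairs with unlike list formats. AID_aux against its untreated line AID_ctrl gave 0.682 to 0.697, close to its replicates. KO against WT gave 0.424 and 0.444 with WT replicate 1 and 0.273 and 0.295 with WT replicate 2, where the WT replicates reached 0.398 with each other.

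At the GATA6 gene (chromosome 18, 22169589 to 22202528) AID_aux libraries called 25 and 20 of 38 assigned regions, against 28 and 25 in KO. AID_ctrl called 23 and 22, and WT 18 and 14. Of the 38, 15 were shared, 2 were AID_aux-only and 5 were KO-only. The region over the GATA6 start (22168382 to 22170579), which holds the promoter printed above, was shared. An AID_aux-only region of 1093 bp (22200301 to 22201393) lay near the end of the gene body. All 6 libraries of the degron line called it, whatever the auxin, and no KO or WT library did, and the nearest KO window was 3560 bp away. Its −log10 p was 25.3 and 20.4 in the AID_aux lists. The other AID_aux-only region (22167114 to 22167346) lay 65 bp from a KO window. Of the KO-only regions inside the gene body, 1 (22173987 to 22174507) was also called by AID_ctrl replicate 1 and 1 (22182693 to 22183209) by WT replicate 1. The other 3 KO-only regions, upstream and downstream of the gene, had no call outside KO among the 10 libraries. These calls are no test of either loss, because GATA6 DNA remains under the degron and the extent of the KO edit is not given.

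**Figure D1:**
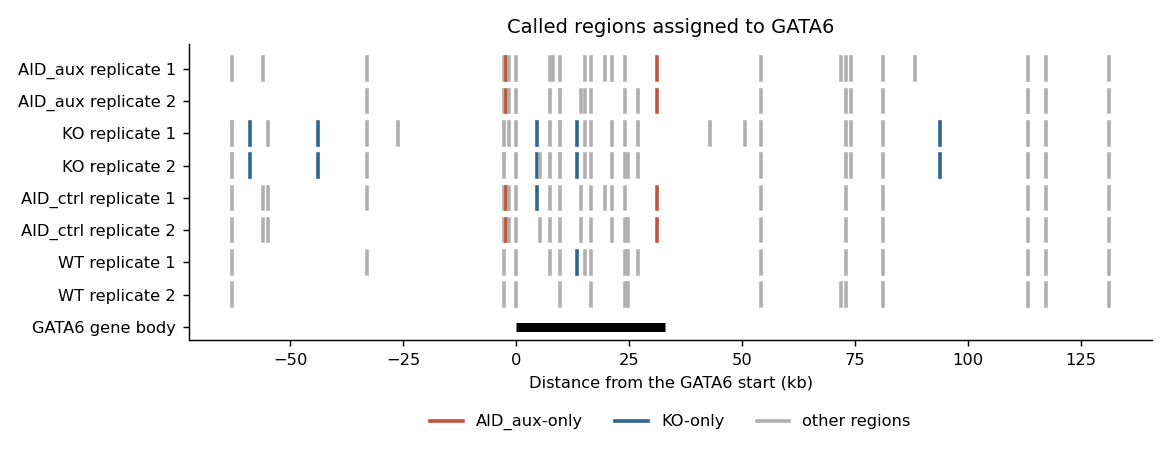
Regions assigned to GATA6 that each library called, as ticks at their distance from the GATA6 start in kb, 1 row a library with the gene body as the black bar. Red ticks are AID_aux-only, blue ticks KO-only and grey ticks all other regions. The red tick near the end of the gene body is present in both AID_aux and both AID_ctrl rows and absent from the KO and WT rows.

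The paralogs of GATA6 had few regions of either class. GATA4 had 5 and 3 of 9 regions called in AID_aux, against 9 and 7 in KO, and GATA3 had 4 and 4 of 8 in AID_aux, against 7 and 7 in KO, with 2 KO-only regions each. GATA5 had 13 and 13 of 17 in AID_aux, against 17 and 14 in KO, with 1 KO-only region. GATA2 had 5 and 6 of 8 regions called in AID_aux, against 7 and 6 in KO, and held no region of either class. ZFPM2, a cofactor that binds GATA proteins, ran the other way with 7 and 8 of 9 regions called in AID_aux, against 3 and 3 in KO, and 3 AID_aux-only regions. TRPS1, a repressor with a GATA-type zinc finger, had 7 and 6 of 12 in AID_aux, against 10 and 11 in KO, and 4 KO-only regions. Over the 9 GATA factors and cofactors, 5 of 115 regions were AID_aux-only (4.35%) and 15 were KO-only (13.0%). Among all regions assigned to a protein-coding gene the shares were 1.98% and 13.3%, so the KO-only share of the list was near the background.

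The AID_aux-only and KO-only regions were looked up in the untreated lines, whose lists differ in format in the same way, with wide intervals in AID_ctrl and 500 bp windows in WT. AID_aux-only regions were mostly called in the degron line before auxin: AID_ctrl replicates called 71.8% and 69.4% of them, and 1882 (59.0%, exact binomial 95% interval 57.2 to 60.7, counting error only) were called by both. The share called by both was 34.8% without AID_aux replicate 2, 90.1% with a −log10 p of at least 10 in AID_aux and 91.5% with at least 50% of a region covered. WT replicates called 32.6% and 13.8% of them, and 2089 (65.4%) were called by neither WT library. In 982 of the 3192 (30.8%, 29.2 to 32.4) both AID_ctrl libraries and no WT library had a call, the same split as between AID_aux and KO. That share was 19.6% without AID_aux replicate 2, 46.8% without WT replicate 1 and 77.9% with at least 50% of a region covered. Line and list format cannot be told apart in it. Another 344 (10.8%) were called by both AID_ctrl and both WT libraries. In 506 (15.9%) neither AID_ctrl nor WT had a call.

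Most KO-only regions had no call in any other library. AID_wash replicates called 4.22% and 11.3% of them, AID_ctrl replicates 10.6% and 9.78%, and WT replicates 23.7% and 6.98%. No library of the other 6 called 12660 of the 20673 (61.2%), and 13500 (65.3%, 64.6 to 66.0) had no call in AID_ctrl or WT. In 707 (3.42%, 3.18 to 3.68) both WT libraries and no AID_ctrl library had a call. This share depends on the WT list used: it was 17.4% without WT replicate 2, whose list is the shortest of the 10, and 4.78% without WT replicate 1. Both AID_ctrl and both WT libraries called 184 (0.890%). Both WT libraries called 5.27% of KO-only regions, and 8.40% with a −log10 p of at least 10 in AID_aux. Without WT replicate 2 the share is that of WT replicate 1 alone, 23.7%. By contrast, 45487 of the 72949 shared regions (62.4%) were called in all of the other 6 libraries.

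**Figure D2:**
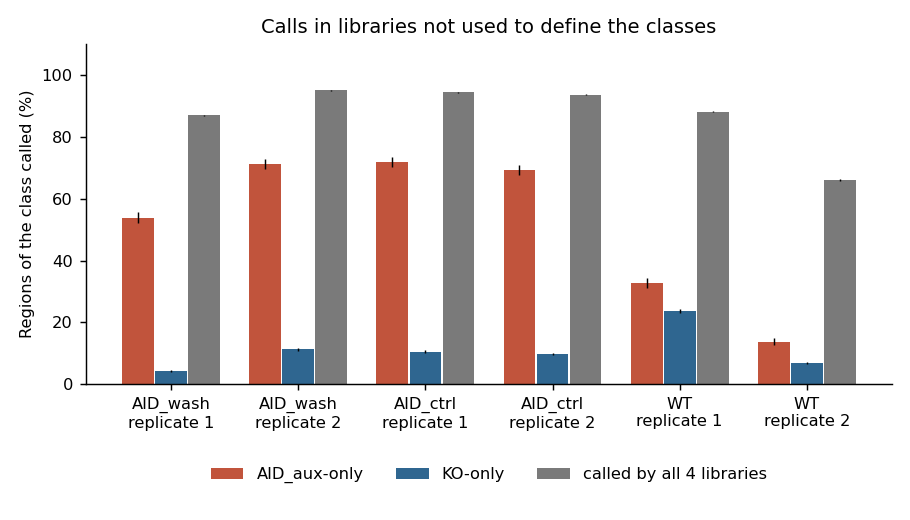
Percent of AID_aux-only (red), KO-only (blue) and shared (grey) regions called in each of the 6 libraries that did not define these classes, with exact binomial 95% intervals that cover counting error only. AID_aux-only regions were called in 69.4% to 71.8% of cases in AID_ctrl, and KO-only regions in 6.98% to 23.7% in WT.

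The untreated lines, taken alone, differed in the opposite direction. Over the 126443 regions merged from the AID_ctrl and WT lists, AID_ctrl-only regions made up 8.95%, WT-only regions 1.66% and regions called by all 4 libraries 38.5%. The list with wide intervals thus had the larger share of its own regions in the untreated lines, and the KO lists with fixed windows had it here. The WT lists were shorter, with 92814 and 65939 windows (46.4 and 33.0 Mb), against 130311 and 116231 (65.2 and 58.1 Mb) in KO. The part of list length in this contrast was not tested.

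AID_aux-only regions were weak peaks. Their median −log10 p was 9.40 and 7.85 in the AID_aux lists, against 31.5 and 21.99 for shared regions. Of the 7552 regions in the top 10% of ranks in both AID_aux lists, 7545 (99.9%) were called by both KO libraries and 3 by neither. Of the 5864 regions whose lower rank was in the bottom 10%, 71.1% were called by both KO libraries and 935 (15.9%) by neither. AID_aux-only regions in the top 50% of both lists numbered 232, and in the top 25% 35.

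**Figure D3:**
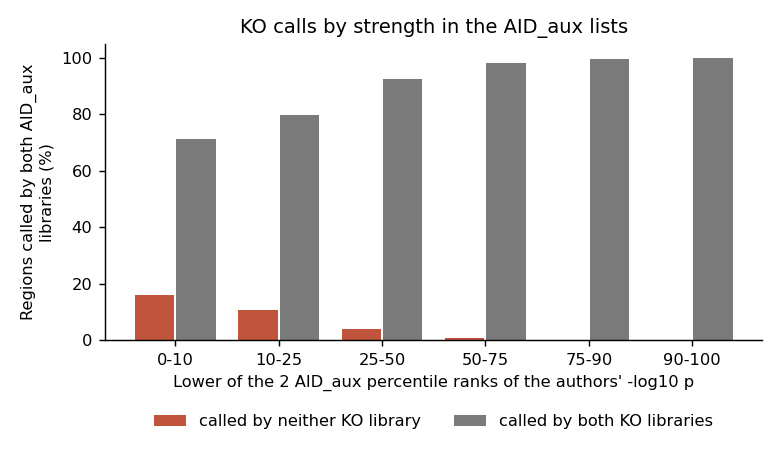
Percent of regions called by both AID_aux libraries that neither KO library (red) or both KO libraries (grey) called, by the lower of the region's percentile ranks of the authors' −log10 p in the AID_aux lists. The red bars fall from 15.9% in the lowest band to 0.0397% in the highest.

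The strongest AID_aux-only regions lay beside KO windows. The first 10 by rank, among them regions inside RAB27B, a vesicle transport GTPase gene (chromosome 18, 54775758 to 54776005), ISM1 (chromosome 20, 13262141 to 13262439), TRIM2 (chromosome 4, 153205811 to 153206277) and KIZ (chromosome 20, 21183743 to 21184243), all had a KO window within 500 bp. The gap was 122 bp at RAB27B, 29 bp at ISM1, 288 bp at TRIM2 and 13 bp at KIZ. The others lay at or near WDR33, DAPK3, SOCS1, a feedback inhibitor of cytokine signalling, KMO, a tryptophan breakdown enzyme gene, and WDFY4, and 1 had no protein-coding gene within 100000 bp. Of all AID_aux-only regions, 948 (29.7%) had a KO window within 500 bp, and of KO-only regions 1055 (5.10%) had an AID_aux peak within 500 bp. AID_aux-only regions within 500 bp of a KO window had a median width of 303.5 bp, and those farther away 468 bp.

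Away from KO windows, 110 of the 232 regions in the top 50% had no KO window within 1000 bp. The strongest of these were listed after the distances had been seen. They included regions inside NALF1, which encodes a partner of the NALCN sodium leak channel (chromosome 13, 107192235 to 107193113, and 107465891 to 107466989), over the printed promoter of B3GALT1 (chromosome 2, 167292312 to 167293260), 3741 bp from CALN1, a neuronal calcium sensor gene (chromosome 7, 71775267 to 71776233), and 90111 bp from TBX3, a T-box factor gene (chromosome 12, 114773937 to 114774635). The −log10 p at B3GALT1 was 61.0 and 57.9, and the nearest KO window was 27483 bp away. The first 10 of them were called by all 6 libraries of the degron line, and 9 of them by WT replicate 1. WT replicate 2 called fewer. Of the regions named here, it called the one near CALN1 and the one at 107465891 to 107466989 in NALF1. It did not call the other NALF1 region or those at B3GALT1 and TBX3.

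Few genes held many AID_aux-only regions. GALNT17, an O-glycosylation enzyme gene, had 26 and 25 of 31 regions called in AID_aux, against 7 and 5 in KO. AID_ctrl called 20 and 18 of them and WT 13 and 8. It had 13 AID_aux-only and 0 KO-only regions. NALF1 had 27 and 20 of 30 regions in AID_aux, against 6 and 5 in KO, with 12 AID_aux-only and 0 KO-only regions. AID_ctrl called 17 and 19 regions at NALF1 and WT 13 and 7. Both genes were picked for their AID_aux-only counts, so low KO counts there follow from the choice.

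CALN1, on chromosome 7 like GALNT17, had 11 AID_aux-only and 2 KO-only regions, and GPC5, a glypican gene, 9 AID_aux-only and 1 KO-only. LINGO2 and PTPRD, genes of neuronal membrane proteins, had 8 AID_aux-only regions each, against 2 and 3 KO-only regions, in that order. CNTNAP2, a neurexin-family gene, had 7 of each class, and ATP8A2, a phospholipid flippase gene, 7 AID_aux-only and 5 KO-only. PLXDC2 had 6 of 11 regions AID_aux-only and 0 KO-only, the highest share (54.5%) among genes with at least 10 regions. After it by share came HNRNPA1L3, TUSC3, a gene of N-glycosylation, GALNT17, NALF1 and HS3ST3A1, a heparan sulfate sulfotransferase gene. In all, 2036 of 17953 genes with a region had at least 1 AID_aux-only region, and 20 had 5 or more.

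KO-only regions were spread over many more genes: 8123 of 17953 genes had at least 1, and 680 had 5 or more. PLXNA4, a semaphorin receptor of axon guidance, had 28 and 24 of 66 regions called in AID_aux, against 58 and 54 in KO, with 1 AID_aux-only and 26 KO-only regions. AID_ctrl called 21 and 21 and WT 26 and 13. PLXNA4 and the genes named next were picked for their KO-only counts, so high KO counts follow from the choice. Over all regions, KO libraries called 86.4% and 76.8%, against 66.0% and 58.5% in AID_aux. LRMDA had 0 AID_aux-only and 21 KO-only regions, with 40 and 35 of 70 called in AID_aux, against 69 and 61 in KO. The adhesion gene NTM, AUTS2, the focal adhesion gene LPP, TENM4, which encodes a teneurin, and PRKCE, which encodes protein kinase C epsilon, had 17 KO-only regions each and 0 AID_aux-only. SUGCT had 16, and ANK2, the ankyrin-B gene, and STARD13 had 14 each, also with 0 AID_aux-only regions.

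**Figure D4:**
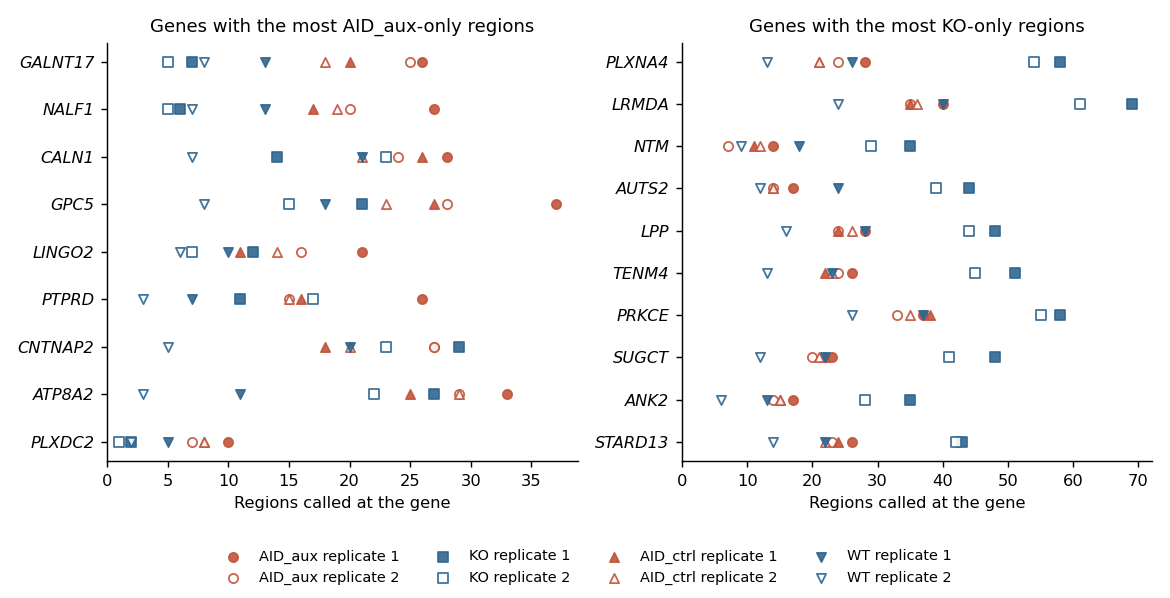
Number of regions called at 9 of the 10 genes with the most AID_aux-only regions (left) and the 10 with the most KO-only regions (right), 1 point a library, filled for replicate 1 and open for replicate 2. Circles are AID_aux, squares KO, upright triangles AID_ctrl and inverted triangles WT. In the right panel the KO squares lie to the right of all other points. In the left panel the KO squares at GALNT17 and NALF1 lie to the left of the AID_aux circles. The genes were picked by their counts of these classes, so these positions are no independent result.

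At some genes most regions were KO-only. KYNU, which encodes kynureninase of tryptophan breakdown, had 13 of 17 regions KO-only (76.5%), the highest share among genes with at least 10 regions. AID_aux libraries called 1 and 1 of its regions, against 15 and 15 in KO. AID_ctrl called 1 and 1 and WT 4 and 0. NR3C2, the mineralocorticoid receptor gene, had 8 of 13 KO-only, with 3 and 4 called in AID_aux, against 13 and 12 in KO. QTMAN, C21orf91, KCNU1, MCHR2, ESYT3, PXDNL, ATP2B1, a plasma membrane calcium pump gene, and STAU2, an RNA-binding protein gene, followed by share, each with 0 AID_aux-only regions.

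The same regions were also counted in blocks of 1 Mb, so the blocks repeat the calls above and are no separate evidence. Of 2298 blocks with at least 20 regions, 69 had more AID_aux-only than KO-only regions and 2185 the reverse. Around SOX11, a neural transcription factor gene (chromosome 2, 5 to 6 Mb), AID_aux libraries called 23 and 16 of 26 regions, against 2 and 0 in KO. AID_ctrl called 14 and 15 there and WT 0 and 0, so the block was split in the same way between the untreated lines. On chromosome 7 (71 to 72 Mb, with CALN1 and GALNT17) AID_aux called 40 and 35 of 47 regions, against 10 and 10 in KO, where AID_ctrl called 30 and 27 and WT 22 and 11. The other 3 blocks with the largest AID_aux-only shares lay on chromosome 2 (34 to 35 Mb), chromosome 13 (107 to 108 Mb, with NALF1) and chromosome 10 (19 to 20 Mb, with MALRD1 and PLXDC2).

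Blocks of the other kind held KYNU and LRP1B (chromosome 2, 142 to 143 Mb), where AID_aux called 1 and 0 of 22 regions, against 18 and 18 in KO, with 0 and 0 in AID_ctrl and 5 and 0 in WT. Around NR3C2 and ARHGAP10 (chromosome 4, 148 to 149 Mb) AID_aux called 5 and 7 of 33, against 33 and 28 in KO, with 7 and 6 in AID_ctrl and 14 and 8 in WT. Blocks with ID4 and MBOAT1 (chromosome 6, 19 to 20 Mb), DNAH5 (chromosome 5, 13 to 14 Mb) and FBXO15 (chromosome 18, 73 to 74 Mb) came next. By chromosome the KO-only share ran from 8.43% on chromosome 19 to 17.4% on chromosome X, and the AID_aux-only share from 1.71% on chromosome 20 to 2.74% on chromosome 13.

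Gene lists were described by their share of AID_aux-only and KO-only regions, read against 1.98% and 13.3% over all gene-assigned regions (51.0% were shared). The lists come from 352 genes. Each of the 22 lists had more KO-only than AID_aux-only regions, as had all gene-assigned regions together. The enteroendocrine genes, which mark hormone cells of the gut, had 0 of 74 regions AID_aux-only. A count of 0 allows up to 4.86% (exact 95% interval). The list had 17 KO-only regions (22.97%, 14.0 to 34.2). The KO-only ones included 5 at NKX2-2, 4 at ISL1, 3 at NEUROD1, all transcription factors of endocrine cells, and 3 at the granule protein gene SCG2. CHGA, CHGB, NEUROG3, PAX4, PAX6, PYY, SST and TPH1 had 0 KO-only regions. PAX4 ran the other way, with 2 and 1 of 2 regions called in AID_aux, against 1 and 0 in KO. NEUROG3 had 1 and 1 of 3 called in AID_aux, against 0 and 1 in KO. At ISL1 AID_aux libraries called 1 and 1 of 6 regions, against 6 and 5 in KO. At NKX2-2 they called 4 and 4 of 10, against 10 and 9 in KO.

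Cation channel genes had 7 of 524 regions AID_aux-only (1.34%) and 95 KO-only (18.1%), with 11 KO-only each at KCNMA1 and CACNA1C, 10 at ASIC2 and 9 at TRPM3. Axon guidance genes had 10 of 495 regions AID_aux-only (2.02%) and 86 KO-only (17.4%), with 10 KO-only at SEMA3A, 9 at SLIT3 and 5 at SEMA5A besides PLXNA4. These 2 lists were drawn up knowing that such genes gain regions in KO against WT. All 22 lists were chosen with earlier results of these data known, so the direction of no list is independent evidence. Aryl hydrocarbon receptor genes had 1 of 105 AID_aux-only (0.952%) and 19 KO-only (18.1%), with 7 KO-only at TIPARP, 5 at AHRR, 3 at AHR and 2 at ARNT2. The single AID_aux-only region lay at AHRR.

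Nuclear receptor genes had 10 of 359 regions AID_aux-only (2.79%) and 60 KO-only (16.7%), with 12 KO-only at THRB, 9 at RORA, 8 at NR3C2 and 6 at RXRA. Mesenchymal genes had 3 of 148 regions AID_aux-only (2.03%) and 25 KO-only (16.9%), with 6 KO-only at CDH2, the N-cadherin gene, and 4 each at FN1 and ZEB1, while SNAI2 had 1 AID_aux-only and 2 KO-only. Markers of other cell types were close to the background: fibroblast and endothelial markers had 2 of 180 regions AID_aux-only (1.11%) and 27 KO-only (15.0%), with 6 KO-only at VWF and 5 at TEK, and blood and immune markers 2 of 76 regions AID_aux-only (2.63%) and 11 KO-only (14.5%), with 4 at PTPRC and 3 at KIT. At PTPRC AID_aux libraries called 11 and 11 of 21 regions, against 17 and 17 in KO.

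Another 7 lists had KO-only shares of 11.3% to 13.8%. Intestinal transcription factors had 10 of 273 regions AID_aux-only (3.66%) and 37 KO-only (13.6%), with 1 AID_aux-only and 5 KO-only at EHF and 0 AID_aux-only and 6 KO-only at ISX. Goblet and secretory genes had 3 of 87 regions AID_aux-only (3.45%) and 12 KO-only (13.8%). Of the KO-only regions, 3 lay at AGR2, which encodes a mucin-folding enzyme, and 2 at AGR3. MUC5B had 1 AID_aux-only and 2 KO-only regions, and CLCA1 and ZG16 had 1 of each class. ATOH1, MUC2, SPDEF, TFF1 and TFF3 held neither class. MUC2 ran the other way, with 8 and 5 of 10 regions called in AID_aux, against 5 and 4 in KO. Enterocyte and colonocyte genes had 1 of 74 regions AID_aux-only (1.35%) and 10 KO-only (13.5%), with 2 KO-only at CA2 and 2 at SLC5A1. YAP and TEAD genes had 4 of 201 regions AID_aux-only (1.99%) and 26 KO-only (12.9%), with 6 KO-only at ANXA1 and 4 at ANKRD1. Looping and chromatin genes had 5 of 272 regions AID_aux-only (1.84%) and 34 KO-only (12.5%), with 9 KO-only at HDAC9 and 7 at ARID1B. BMP and TGF-beta genes had 8 of 373 regions AID_aux-only (2.14%) and 45 KO-only (12.1%), with 5 KO-only at TGFBI, 4 at ACVR1 and 2 AID_aux-only and 4 KO-only at BMPR1B. WNT target and stem cell genes had 7 of 274 regions AID_aux-only (2.55%) and 31 KO-only (11.3%), with 3 AID_aux-only and 2 KO-only at AXIN2, 2 and 4 at ZNRF3, 0 and 4 at CD44 and 1 and 3 at RNF43.

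The lowest KO-only shares among the 22 lists were in 6 others. HOX genes had 5 of 110 regions AID_aux-only (4.55%) and 7 KO-only (6.36%), with 4 AID_aux-only and 2 KO-only at HOXB9. Colon epithelium markers had 3 of 127 regions AID_aux-only (2.36%) and 9 KO-only (7.09%), with 1 AID_aux-only and 2 KO-only at CDX2, 2 KO-only each at CEACAM5 and CLDN3, and 1 at CDX1. Cell cycle genes had 2 of 98 regions AID_aux-only (2.04%) and 7 KO-only (7.14%), of which 4 KO-only were at CDK6. AP-1 genes had 3 of 85 regions AID_aux-only (3.53%) and 7 KO-only (8.24%), with 5 KO-only at JUN. Housekeeping genes had 7 of 119 regions AID_aux-only (5.88%) and 10 KO-only (8.40%). Epithelial junction genes had 8 of 270 regions AID_aux-only (2.96%) and 26 KO-only (9.63%), with 2 AID_aux-only and 7 KO-only at PARD3, a polarity gene.

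**Figure D5:**
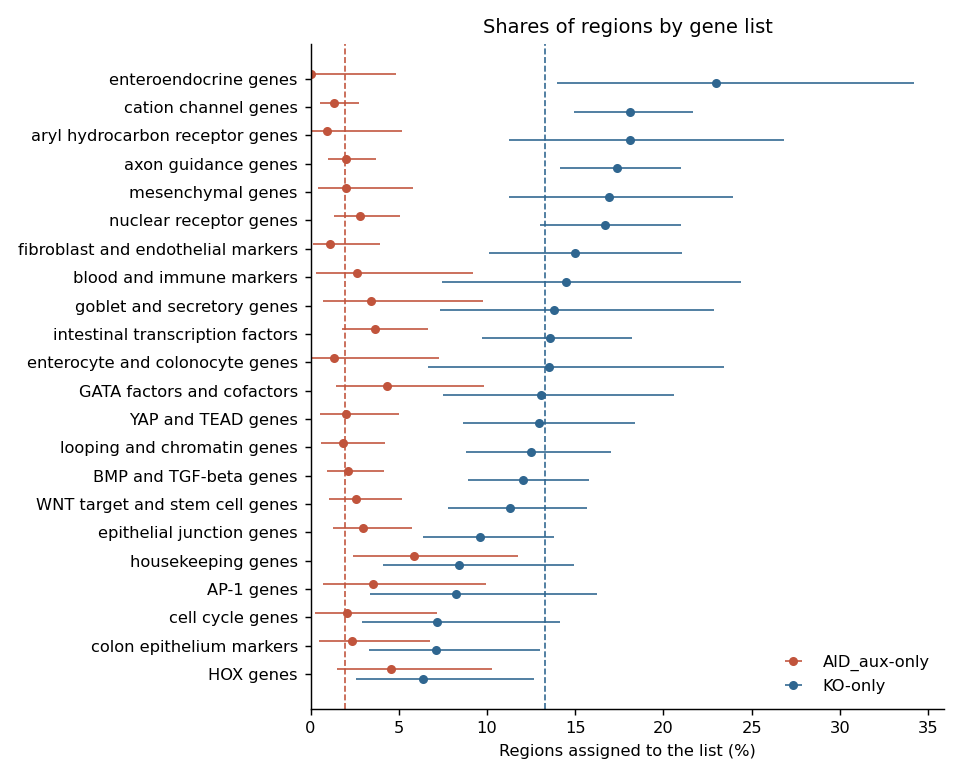
Percent of the regions of each gene list that were AID_aux-only (red) or KO-only (blue), with exact binomial 95% intervals that cover counting error only; dashed lines give the shares over all gene-assigned regions, 1.98% and 13.3%. Enteroendocrine genes have the highest KO-only share (22.97%) and HOX genes the lowest (6.36%).

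Both AID_aux-only and KO-only regions were mostly distant from gene ends. Protein-coding gene ends lay within 1000 bp of 284 AID_aux-only regions (8.90%, exact binomial 95% interval 7.93 to 9.94), 750 KO-only regions (3.63%, 3.38 to 3.89) and 13193 shared regions (18.1%, 17.8 to 18.4). The order of these 3 shares was kept under all but 1 of the settings tried. With at least 50% of a region covered, AID_aux-only regions were near an end in 31.0% of cases and shared ones in 9.95%. With intervals within 500 bp merged, the shares were 4.15% for AID_aux-only and 3.32% for KO-only regions, and with all peaks at 500 bp they were 13.96% and 3.61%. AID_aux-only regions with a KO window within 500 bp were near an end in 16.2% of cases and the others in 5.79%. Of the intervals of each library, 15.1% and 16.1% were near a gene end in AID_aux, against 12.0% and 13.0% in KO (exact permutation test, two-sided p = 0.333). No protein-coding gene lay within 100000 bp of 20.5% of AID_aux-only, 17.5% of KO-only and 10.4% of shared regions.

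Few promoters lay in AID_aux-only or KO-only regions, but this depended on how a window was assigned. Of 22132 promoter windows of 15812 protein-coding genes, 58.4% lay in shared regions, 56 in AID_aux-only regions (0.253%) and 193 in KO-only regions (0.872%). Chromosome 8 was not covered by these windows. Besides B3GALT1, KLHL4 and RLN2, the first AID_aux-only promoters by rank were those of ADGRF3, RNF43, a ubiquitin ligase gene that restrains WNT signalling, BCL2L1, PON3, POU3F3, TSPAN4 and ABCC12. Of these 10 regions, 5 lay within 250 bp of a KO window: 15 bp at TSPAN4, 73 bp at RNF43, 133 bp at BCL2L1, 224 bp at ABCC12 and 250 bp at ADGRF3. At B3GALT1, KLHL4 and RLN2 the gap was 27483, 107549 and 33982 bp, in that order. Besides SPINK6, STARD13 and AGR3, the KO-only promoters named by the rule were those of ARHGDIA, ABCA12, 58 bp from an AID_aux peak, ACER1, ACSL1, ACVR1, ADAMTS17 and AGAP2. The rule counted KO windows, and the regions at ARHGDIA, SPINK6 and STARD13 held 3. The others held 2 and were first in alphabetical order among many ties, so they are no leading set. When each library's own peaks had to touch the window, 2241 windows were AID_aux-only and 210 KO-only. The AID_aux-only count thus rose from 56, and the order of the classes turned round. Of the 2241, 2188 lay in shared regions.

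The GATA letters were counted in the same windows. At least 1 match to AGATAA or TGATAA or AGATAG or TGATAG on either strand was found in 16.1% of AID_aux-only windows (9 of 56, exact binomial 95% interval 7.62 to 28.3), 28.0% of KO-only windows (54 of 193, 21.8 to 34.9) and 13.3% of shared windows. All windows together gave 19.97%, and windows that none of the 4 libraries called 30.05%. The median GC content also differed, at 63.2%, 50.7% and 66.0% in AID_aux-only, KO-only and shared windows and 54.3% in windows without a call. Its part in the shares was not tested. In the windows printed above, KLHL4 holds AGATAA once and STARD13 holds TGATAG once, and the other 5 hold none of these letters.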

How the data were processed

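ATAC-seq peak lists of 4 libraries were compared, 2 AID_aux and 2 KO, each called per library by the authors. Per the submitters' processing notes, the tools were MACS2 2.1.1, Picard, Bowtie2 2.4.2 and Trim Galore 0.6.10, on hg38. The sources used here state no parameters and no shift for the transposase. The deposited AID lists hold peak summits with an interval, a score, a fold enrichment ratio, and −log10 values of p and q per peak. The −log10 p is the authors' own value and ranks peaks within 1 list only. The deposited KO and WT lists hold 500 bp windows with no value.

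Intervals that overlapped or touched were merged. Regions were assigned to the nearest protein-coding gene body within 100000 bp (RefSeq, GRCh38.p14, whose gene table has no strand or exons, so either end counts as a gene end). All 352 listed genes matched. Shares carry exact binomial 95% intervals for counting error only. Genes were named by rule: the 10 with most regions of a class, the 10 with the largest share among those with at least 10 regions, and up to 4 per list. Regions were the 10 highest-ranked, or with most KO windows. The members and lists were chosen with earlier results of these data known. Code (Python 3.11.15, pandas 2.3.3, scipy 1.17.1) was tested on simulated data. Some genes that the rule names are not reported here.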

Additional observations from a re-analysis of the deposited data

Results flagged for a closer look

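At some regions the calls differed in opposite directions in the lines. In 408 regions both AID_ctrl libraries had a call, both AID_aux libraries had none, both WT libraries had none and both KO libraries had one: these lost calls with auxin and gained them in the knockout. Among them were a region 16 bp from an end of AKAP1 (chromosome 17, 57120829 to 57121890) and a region inside SERP2 (chromosome 13, 44379663 to 44380714), and both wash libraries called 75 of the 408 (18.4%). The reverse, a gain with auxin and a loss in the knockout, was seen in 10 regions, among them 1 inside RAC2 (chromosome 22, 37235489 to 37235737) and 1 in HOXB9 (chromosome 17, 48625211 to 48625446), 349 bp from a KO window. The difference between the lines was not tested, and the 2 counts are not adjusted for the unequal list lengths. The set of 408 is 1.97% of the KO-only regions and the set of 10 is 0.313% of the AID_aux-only regions. The same AID_ctrl and WT calls were found in 6.83% and 0.307% of shared regions, in that order. Calls that cross a threshold were not told apart from changes in openness.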

How the results depend on the processing

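Among merged regions, KO-only ones stayed more numerous than AID_aux-only ones in every setting, while sizes moved. The −log10 p and cut-length settings removed AID_aux peaks only, so the order is no check there. Among promoter windows that peaks had to touch, the order turned round, with 2241 AID_aux-only and 210 KO-only. Requiring a −log10 p of at least 10 in AID_aux gave 741 AID_aux-only and 36840 KO-only regions, near a gene end in 12.0% and 4.42% of cases, against 21.8% of shared regions; both AID_ctrl called 90.1% of AID_aux-only and both WT 8.40% of KO-only regions, and 33.7% and 3.17% were split the same way in the untreated lines. Requiring 50% coverage gave 29587, 31840 and 28687 shared regions, near a gene end in 31.0%, 4.38% and 9.95% of cases, with 91.5%, 7.77%, 77.9% and 4.96% for the same 4 shares, so the order of AID_aux-only and shared regions near gene ends turned round. Merging intervals within 500 bp gave 2000 AID_aux-only regions, 4.15% of them near a gene end against 3.32% of KO-only regions, and 28.8% split the same way. Setting all peaks to 500 bp moved the AID_aux-only share near a gene end to 13.96% and that called by both AID_ctrl to 63.1%. Counting up to 3000 bp as near gave 15.98%, 8.90% and 24.1% for AID_aux-only, KO-only and shared regions. Cutting the AID_aux lists to the covered length of the KO lists, chosen after seeing the data, gave 1589 AID_aux-only regions, with 10.01%, 3.97% and 19.7% near a gene end, 76.7% called by both AID_ctrl, 6.65% of KO-only regions called by both WT and 36.2% split the same way. The cause of these moves was not tested.

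Leaving out each library in turn gave 3812 to 10713 AID_aux-only and 23900 to 36686 KO-only regions. The shares near a gene end were 8.69% to 9.94%, 3.75% to 4.34% and 16.7% to 18.1% for AID_aux-only, KO-only and shared regions. Without 1 AID_aux or KO library, both AID_ctrl called 34.8% to 60.4% of AID_aux-only regions. Both WT then called 3.56% to 7.39% of KO-only regions. With only 1 AID_ctrl library kept, that library called 69.4% or 71.8% of AID_aux-only regions. With only 1 WT library kept, it called 6.98% or 23.7% of KO-only regions. The shares split the same way were 19.6% to 46.8% and 2.28% to 17.4%, over runs that include those with 1 AID_ctrl or WT library kept. All 22 gene lists kept more KO-only than AID_aux-only regions in the settings run for them (500 bp peaks, −log10 p of at least 10, cut length). The planned cut to equal numbers of intervals was not run, because the AID_aux lists hold fewer intervals than the KO lists. No paired analysis was possible because the results are counts of calls with no model, and the replicate numbers of the lines are not tied to each other by the labels. Without read counts, no depth limit can be given.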
